A study of Mus musculus with 7 samples.

Results

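The subject is a set of 10 genes of striated muscle, Ttn, Neb, Acta1, Ckm, Myh1, Myh4, Mylpf, Tnnt3, Actn2 and Ryr1, in mouse tumours. They were found by gene symbol, 10 of the 24421 genes in the count table, and all 10 had reads. The members were chosen by their read counts in these same 7 libraries, anti-LAIR1 against control, so the difference between the groups describes the choice and is not tested. The name given to the set, sarcomere and muscle enzyme genes, holds for 8 sarcomere genes and 1 enzyme gene, Ckm, while Ryr1 encodes a calcium channel.

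Polyadenylated RNA was sequenced from 7 tumours, each from its own mouse, with titles that give week 4. In 4 mice the treatment was anti-Lair1 with anti-PD-1, and LAIR1 is an inhibitory receptor that leukocytes use to sense collagen. In 3 mice it was anti-KLH, a control antibody, with anti-PD-1, so blockade of the T cell receptor PD-1 was common to all 7. The comparison asks what anti-LAIR1 adds to anti-PD-1.

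The series text describes 344SQ cells, a lung cancer line from K-rasLA1/+p53R172H∆g/+ mice, grown under the skin of male and female 129/Sv mice aged 6 to 8 weeks and dosed with 10 mg/kg of the anti-LAIR antibody and 8 mg/kg of the anti-PD-1 antibody. It also describes KrasLSL-G12D/p53fl/fl mice infected with adenovirus-cre at 3 to 4 months of age and treated 2 months later. The labels do not say which of these models, or which sex, each of the 7 tumours represents. Names of the anti-LAIR1 mice begin with WTSV and those of the control mice with LOHM or KWM. No label explains these prefixes, and prefix and treatment cannot be told apart.

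Striated muscle contracts when myosin thick filaments pull on actin thin filaments inside repeating sarcomeres. Titin, encoded by Ttn, spans from the Z-disc to the middle of the sarcomere as a spring, and nebulin, encoded by Neb, runs along the thin filament. Acta1 encodes the actin of skeletal muscle, Actn2 the alpha-actinin that anchors thin filaments at the Z-disc, and Tnnt3 the fast-fibre troponin T that links calcium sensing to the thin filament. Myh1 and Myh4 encode the myosin heavy chains of fast IIx and IIb fibres, and Mylpf the regulatory light chain of fast fibres. Ryr1 encodes the channel that releases calcium from the sarcoplasmic reticulum, and Ckm the creatine kinase that buffers ATP. In mature fibres the messages of Acta1, Ckm and Mylpf are among the most abundant.

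Libraries held 15347403, 15100728, 11480651 and 13253993 counts in anti-LAIR1 replicates 1 to 4, and 26255727, 13274458 and 9879762 counts in control replicates 1 to 3. Levels are depth-scaled counts (CPM), computed here with TMM-scaled library totals. In 1 library, 3 counts were worth between 0.119 and 0.305 CPM, and lower levels rest on 1 or 2 reads.

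Promoter sequences are shown first for Ttn, Acta1, Myh1 and Myh4, the members with a match to the CArG box or the MEF2 box described below. RefSeq windows of 300 bases on GRCm38.p6, 250 before and 50 after the gene start, matched 8 of the 10 genes. Neb and Tnnt3 had no entry. The windows below are Ttn (chr2:76982498-76982797, minus strand), Acta1 (chr8:123894726-123895025, minus strand), Myh1 (chr11:67199852-67200151, plus strand) and Myh4 (chr11:67237562-67237861, plus strand). Capitals mark matches on either strand to CAGCTG, to TATAAA, to the CArG box or to the MEF2 box.
Ttn: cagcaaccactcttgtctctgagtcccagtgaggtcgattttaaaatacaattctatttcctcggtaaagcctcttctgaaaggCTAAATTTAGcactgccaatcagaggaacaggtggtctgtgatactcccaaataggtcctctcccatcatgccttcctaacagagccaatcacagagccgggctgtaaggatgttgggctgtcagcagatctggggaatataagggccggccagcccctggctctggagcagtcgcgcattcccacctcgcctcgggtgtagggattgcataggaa
Acta1: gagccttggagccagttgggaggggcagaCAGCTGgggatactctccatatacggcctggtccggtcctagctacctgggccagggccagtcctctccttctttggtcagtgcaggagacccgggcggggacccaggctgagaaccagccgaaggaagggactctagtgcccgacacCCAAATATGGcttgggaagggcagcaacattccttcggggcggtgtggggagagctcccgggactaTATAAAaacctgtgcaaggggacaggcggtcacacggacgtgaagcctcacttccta
Myh1: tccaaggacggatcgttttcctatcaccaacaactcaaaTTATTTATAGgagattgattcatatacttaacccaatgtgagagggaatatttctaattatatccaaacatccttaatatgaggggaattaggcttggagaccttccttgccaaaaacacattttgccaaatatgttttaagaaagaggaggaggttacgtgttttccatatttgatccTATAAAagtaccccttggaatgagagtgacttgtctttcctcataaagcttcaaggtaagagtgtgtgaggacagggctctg
Myh4: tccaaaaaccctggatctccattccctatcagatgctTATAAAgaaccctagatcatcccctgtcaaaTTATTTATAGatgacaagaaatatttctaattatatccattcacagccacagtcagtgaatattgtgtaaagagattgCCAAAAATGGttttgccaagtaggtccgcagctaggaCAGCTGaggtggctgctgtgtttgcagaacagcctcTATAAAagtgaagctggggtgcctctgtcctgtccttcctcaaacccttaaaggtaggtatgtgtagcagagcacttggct

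The CArG box, the letters bound by serum response factor, was found in 2 of the 8 windows, against 1.63% of 32851 RefSeq promoter windows. It read CCAAATATGG in Acta1, at -73 from the gene start, and CCAAAAATGG in Myh4, at -104. The MEF2 box, the letters bound by the MEF2 factors of muscle, was found in 3 windows, Ttn, Myh1 and Myh4, against 3.19%, and read CTAAATTTAG in Ttn. The Myh1 and Myh4 windows carried the same 10 letters there, TTATTTATAG, which overlap a TATAAA match on the other strand. CAGCTG, a form of the E-box CANNTG bound by myogenic factors, was found in Acta1, Ckm, Myh4 and Mylpf, against 16.3% of all windows, and CANNTG in 6 of the 8 against 72.3%. TATAAA was found in Acta1, Myh1 and Myh4, against 13.6%, and lay at -32 from the start of Myh1 and at -31 from that of Myh4. The Myh1 and Myh4 windows also shared a run of 20 letters, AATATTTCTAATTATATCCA, from base 86 of the Myh1 window and base 88 of the Myh4 window. These are matches of letters and describe the windows only.

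All 10 genes had a higher mean CPM with anti-LAIR1 than in controls. For 9 of the 10, all but Tnnt3, the 3 highest libraries were anti-LAIR1 replicates 1, 3 and 4. Replicate 2 had the lowest level of the 4 anti-LAIR1 libraries for all 10 genes, and no read for 6 of them. The summed level of the 10 genes was 124, 9.97, 86.2 and 118 CPM in anti-LAIR1 replicates 1 to 4, and 5.10, 8.00 and 8.65 CPM in control replicates 1 to 3. The sum averaged 84.5 ± 52.3 CPM with anti-LAIR1 (SD, n = 4) and 7.25 ± 1.89 CPM in controls (SD, n = 3). Anti-LAIR1 replicate 2 lay just above the controls, and the other 3 lay far above both. In RNA from whole tumours, fewer muscle fibres and less muscle RNA per fibre cannot be told apart.

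**Figure D1:**
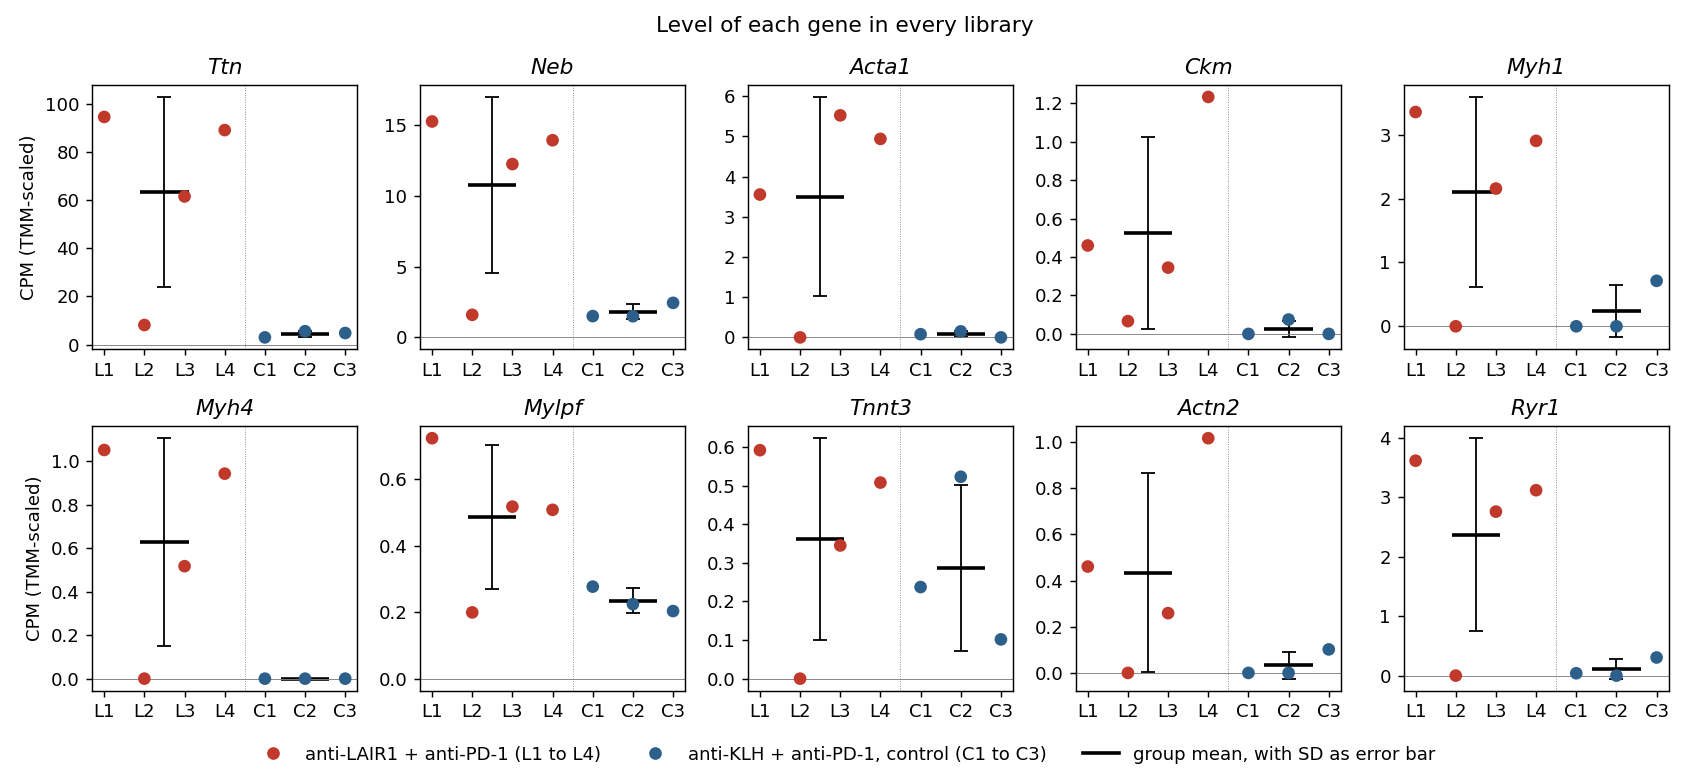
CPM of each of the 10 genes in the 4 anti-LAIR1 + anti-PD-1 libraries (L1 to L4, red) and the 3 control libraries (C1 to C3, blue), with the group mean as a line and the SD as an error bar. L2 is the lowest red point for every gene, and for Ttn it lies at 8.11 CPM, above the highest control at 5.53 CPM.

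Of the filament and Z-disc genes, the giant proteins had the most reads. Ttn (ENSMUSG00000051747.14, chromosome 2, 76703980 to 76982547, minus strand, GRCm38) has 347 exons in its longest coding transcript. Ttn stood at 94.5, 8.11, 61.5 and 89.1 CPM in anti-LAIR1 replicates 1 to 4, and at 2.97, 5.53 and 4.78 CPM in control replicates 1 to 3. All 4 anti-LAIR1 libraries lay above all 3 controls, replicate 2 by the smallest margin. The means were 63.3 ± 39.5 CPM (SD, n = 4) and 4.43 ± 1.32 CPM (SD, n = 3), which edgeR fitted as a log2 fold change of 3.88 (SE 0.86).

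Neb (ENSMUSG00000026950.17, chromosome 2, 52136647 to 52378474, minus strand) stood at 15.3, 1.60, 12.3 and 13.9 CPM in anti-LAIR1 replicates 1 to 4, and at 1.50, 1.49 and 2.44 CPM in controls 1 to 3. Replicates 1, 3 and 4 were high, and replicate 2 lay inside the control range. The Neb means were 10.8 ± 6.23 CPM and 1.81 ± 0.544 CPM (SD, n = 4 and 3), a log2 fold change of 2.60 (SE 0.71). Both giant genes had reads in every control, with at least 20 Neb and 47 Ttn reads per control library.

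Acta1 (ENSMUSG00000031972.5, chromosome 8, 123891769 to 123894751, minus strand) had 54, 0, 64 and 68 reads in anti-LAIR1 replicates 1 to 4, or 3.55, 0, 5.52 and 4.94 CPM, and 2, 2 and 0 reads in controls 1 to 3. Replicate 2 and the 3 controls were at or under the 3-read level. The mean was 3.50 ± 2.48 CPM with anti-LAIR1, against 0.0762 ± 0.0748 CPM in controls (SD, n = 4 and 3), a log2 fold change of 5.27 (SE 1.47). A count of 0 in replicate 2 allows a level of up to 0.199 CPM.

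Actn2 (ENSMUSG00000052374.16, chromosome 13, 12269426 to 12340760, minus strand) had 7, 0, 3 and 14 reads with anti-LAIR1 and 0, 0 and 1 in controls. Tnnt3 (ENSMUSG00000061723.18, chromosome 7, 142498836 to 142516009, plus strand) had 9, 0, 4 and 7 reads with anti-LAIR1 and 6, 7 and 1 in controls. Tnnt3 overlapped most of all, with a mean of 0.361 ± 0.262 CPM against 0.287 ± 0.215 CPM (SD, n = 4 and 3), and was the 1 gene of the 10 whose 3 highest libraries included a control. For Actn2 the pooled reads gave a ratio of anti-LAIR1 to control of 20.9 with an exact 95% counting interval from 3.41 to 861, and for Tnnt3 a ratio of 1.25 from 0.598 to 2.67. These intervals treat reads as independent and leave out the spread between mice.

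Among the myosin genes, Myh1 (ENSMUSG00000056328.14, chromosome 11, 67200052 to 67224575, plus strand) had 51, 0, 25 and 40 reads in anti-LAIR1 replicates 1 to 4, and 0, 0 and 7 in controls 1 to 3. Its mean was 2.10 ± 1.49 CPM against 0.237 ± 0.411 CPM (SD, n = 4 and 3), with a log2 fold change of 3.59 (SE 1.53). Control replicate 3 held all control reads of Myh1. Without it the remaining controls were at 0, and the fitted value of 8.05 then depends on the prior count.

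Myh4 (ENSMUSG00000057003.12, chromosome 11, 67238029 to 67260446, plus strand) had 16, 0, 6 and 13 reads with anti-LAIR1 and none in the 3 controls. Against a floor of 3 reads over the 3 controls together, the pooled Myh4 level was at least 10.2-fold higher with anti-LAIR1. The exact 95% counting interval of the pooled ratio, which also takes in the counting error of the anti-LAIR1 reads, began lower, at 7.84, and replicate 2 had no more reads than the controls. Mylpf (ENSMUSG00000030672.12, chromosome 7, 127208890 to 127214298, plus strand) had 11, 3, 6 and 7 reads with anti-LAIR1 and 7, 3 and 2 in controls. The Mylpf means were 0.487 ± 0.216 CPM and 0.235 ± 0.0379 CPM (SD, n = 4 and 3), and the pooled ratio was 1.96 with a counting interval from 0.961 to 4.25. Mylpf and Tnnt3, both of fast fibres, had the smallest differences of the 10 genes, and every library but 1 had Tnnt3 reads.

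Ryr1 (ENSMUSG00000030592.18, chromosome 7, 29003344 to 29125179, minus strand) had 55, 0, 32 and 43 reads with anti-LAIR1, or 3.62, 0, 2.76 and 3.12 CPM, and 1, 0 and 3 reads in controls, and like Acta1 and Myh1 it had none in anti-LAIR1 replicate 2. Its mean was 2.38 ± 1.62 CPM against 0.115 ± 0.166 CPM (SD, n = 4 and 3), a log2 fold change of 4.64 (SE 1.44). Ckm (ENSMUSG00000030399.2, chromosome 7, 19404776 to 19422841, plus strand) had 7, 1, 4 and 17 reads with anti-LAIR1 and 0, 1 and 0 in controls. Its pooled ratio was 25.3, with a counting interval from 4.19 to 1033.

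A filter on low counts kept 5 of the 10 genes, Ttn, Neb, Acta1, Myh1 and Ryr1. Acta1, Myh1 and Ryr1 passed through anti-LAIR1 replicates 1, 3 and 4 alone, so the 5 do not stand for the set. Their median log2 fold change was 3.88, beside -0.0028 over the 13545 genes tested. By edgeR's quasi-likelihood test with Benjamini-Hochberg adjustment, 0 of the 5 were called at 0.05, and 0.0% of all genes tested were called. The count of genes at an unadjusted p under 0.05 was 697, DESeq2 called 54 genes and limma-voom 0. DESeq2's calls were 0.39% of the genes it tested and included Ttn and Neb. Genes of the lists described below are said to be called where edgeR called them. DESeq2 called 2 genes of those lists, Xirp2 of the sarcomere and Lcp1 of leukocytes, both higher with anti-LAIR1. Without anti-LAIR1 replicate 2, edgeR called 3 genes, 0.0223% of those tested, and these were Ttn, Neb and Acta1. Groups did not overlap for 1 of the 10 genes, Ttn, beside 3.06% of tested genes that were higher in every anti-LAIR1 library than in any control. Since the set was chosen with these differences known, nothing is read from these counts.

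**Figure D2:**
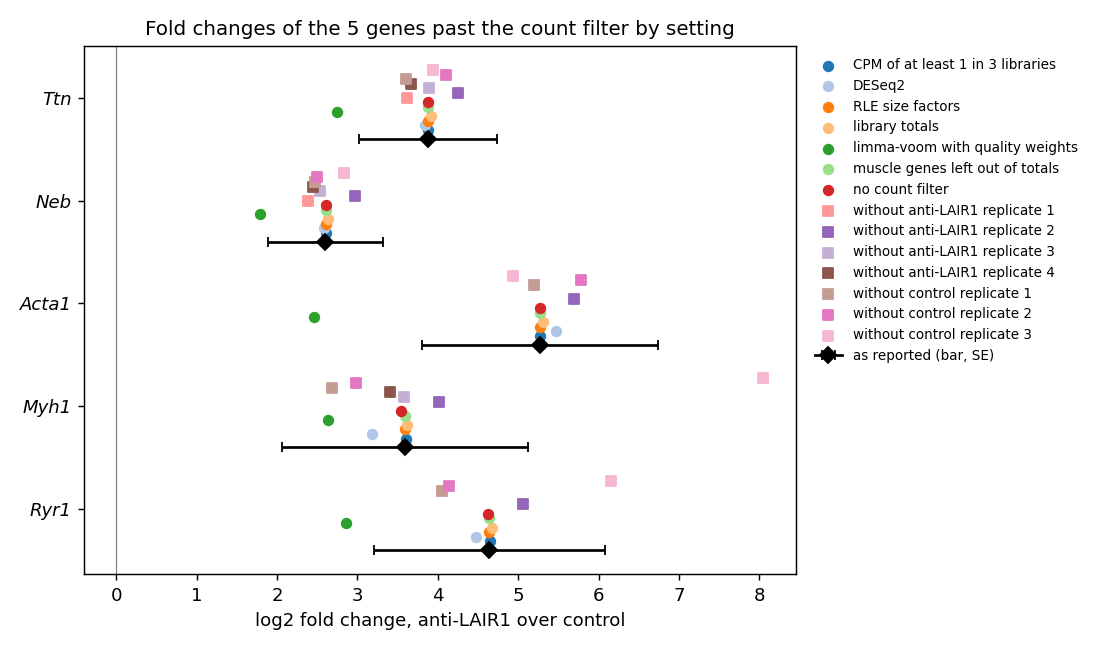
Log2 fold change, anti-LAIR1 over control, of the 5 genes that passed the count filter, under the reported fit (diamond with SE) and under each alternative (circles, scaling, filter or test; squares, 1 library left out). Every value shown lies above 0, between 1.78 for Neb with limma-voom and 8.05 for Myh1 without control replicate 3. The genes were chosen with this direction known.

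Reads of the 10 genes were mostly titin reads. Ttn made up 76.5%, 81.3%, 71.4% and 75.4% of them in anti-LAIR1 replicates 1 to 4, out of 1879, 150, 999 and 1628 reads. In controls 1 to 3 it made up 58.1%, 69.2% and 55.3%, out of 129, 107 and 85 reads. Neb made up 12.3%, 16.0%, 14.2% and 11.8% with anti-LAIR1 and 29.5%, 18.7% and 28.2% in controls. The exact 95% interval of the Ttn share ran from 74.5% to 78.4% in anti-LAIR1 replicate 1 and from 49.1% to 66.8% in control replicate 1. In control replicate 3 it ran from 44.1% to 66.1%. In control replicate 2 it ran from 59.5% to 77.7%, which takes in the shares of anti-LAIR1 replicates 1, 3 and 4.

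**Figure D3:**
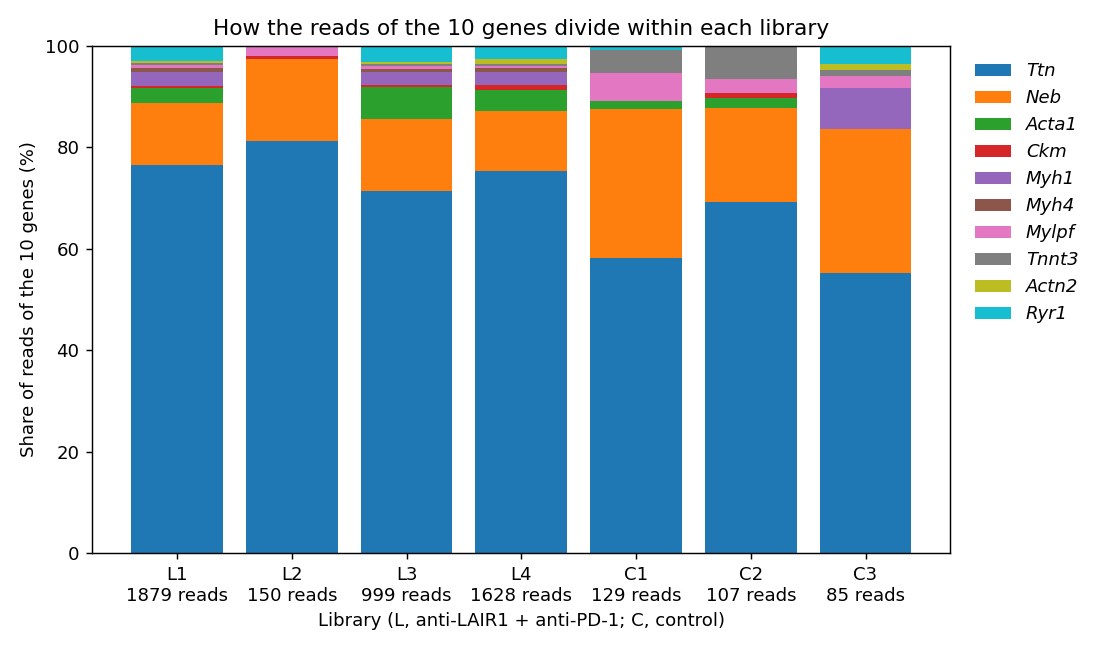
Share of the reads of the 10 genes that each gene takes (percent, stacked) in the 4 anti-LAIR1 libraries (L1 to L4) and the 3 controls (C1 to C3), with the number of reads under each bar. Ttn is the largest part of every bar, from 55.3% in C3 to 81.3% in L2.

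Each library had 619, 508, 502 and 639 Ttn reads per 100 Neb reads in anti-LAIR1 replicates 1 to 4, and 197, 370 and 196 in controls 1 to 3. Per 100 Ttn reads there were 3.76, 0, 8.98 and 5.54 Acta1 reads with anti-LAIR1. The exact counting intervals of replicate 1, from 2.81 to 4.93, and replicate 3, from 6.84 to 11.6, did not overlap. The interval of replicate 4, from 4.28 to 7.08, overlapped both. That of replicate 2 reached 3.07 and overlapped that of replicate 1, and those of controls 1 to 3 reached 9.97, 10.1 and 8.16. Ryr1 reads per 100 Ttn reads were 3.83, 4.49 and 3.50 in anti-LAIR1 replicates 1, 3 and 4, with overlapping intervals, and Myh1 reads were 3.55, 3.51 and 3.26. Control replicate 3 had 14.9 Myh1 reads per 100 Ttn reads, with an interval from 5.68 to 33.2 that lay above those 3 values, and the other 2 controls had 0. These intervals cover counting error only and leave out the spread between mice.

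Per kilobase of coding length, Acta1 had the highest level of the 10 genes in anti-LAIR1 replicates 1, 3 and 4, at 3.14, 4.88 and 4.36 CPM per kilobase. Mylpf stood at 1.43, 1.02 and 1.00 in the same libraries, second in replicates 1 and 3 and below Ckm, at 1.08, in replicate 4. Ttn, which has 105639 coding bases, stood at 0.895, 0.582 and 0.843, Neb at 0.711, 0.571 and 0.650, and Myh1 at 0.576, 0.370 and 0.498 CPM per kilobase. Ckm stood at 0.403 and 0.302 CPM per kilobase in replicates 1 and 3, below Ttn in both. Averaged over the 4 libraries, Acta1 had 3.10 ± 2.19 and Mylpf 0.961 ± 0.426 CPM per kilobase (SD, n = 4), and the intermediate genes, Ttn at 0.599 ± 0.374, Neb at 0.502 ± 0.291, Ckm at 0.461 ± 0.437, Tnnt3 at 0.443 ± 0.321 and Myh1 at 0.361 ± 0.255, differed by less than their spread. Actn2, Ryr1 and Myh4 were lowest, at 0.162 ± 0.161, 0.156 ± 0.107 and 0.108 ± 0.0822. In controls the order differed: Mylpf was highest at 0.463 ± 0.0747 and Tnnt3 next at 0.352 ± 0.264, each on fewer than 8 reads per library, with Neb at 0.0845 ± 0.0254, Acta1 at 0.0674 ± 0.0661 and Ttn at 0.0419 ± 0.0125 CPM per kilobase (SD, n = 3).

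How far the counts of single genes can be told from those of near copies was measured on GENCODE M21 transcripts with windows of 100 bases, the read length. Of the windows of the longest Myh1 transcript, 14.7% occurred exactly in a transcript of another gene, most often Myh2, and 3.85% of those of Myh4. Neb, Acta1, Mylpf, Tnnt3 and Actn2 shared 0 windows, Ttn 0.0131%, Ryr1 1.53% and Ckm 6.24%. For Ttn, Ryr1 and Ckm the partner was an antisense gene that shares exon bases. The strand setting of the counting is not given, so reads of the pairs cannot be told apart, although A930016O22Rik, the partner of Ckm, had 2 reads in the whole table. Myh1 also shares 8.11% of its exon bases with the antisense gene Myhas, so its counts carry both limits. The longest run common to the Myh1 and Myh4 transcripts, both on chromosome 11, was 161 bases, positions 3396 to 3556 of Myh1 and 3331 to 3491 of Myh4, and is shown because a read inside it cannot be assigned to either gene.
Myh1 and Myh4: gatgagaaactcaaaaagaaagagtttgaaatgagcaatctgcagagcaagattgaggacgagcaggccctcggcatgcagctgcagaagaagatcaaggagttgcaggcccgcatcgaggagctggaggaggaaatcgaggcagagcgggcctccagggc

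The list of 26 further sarcomere, M-band and Z-disc genes of fast fibres had 8 members past the count filter, of which edgeR called 0 higher and 0 lower and DESeq2 called 1 higher, Xirp2. Their median log2 fold change was 0.98, with 7 positive and 1 negative value. Nrap, an actin-binding protein of the muscle ends, was the 1 gene of the 8 whose groups did not overlap, higher with anti-LAIR1, beside 3.06% of tested genes. Xirp2, an actin-binding protein of striated muscle attachment sites, had 185, 1, 28 and 120 reads in anti-LAIR1 replicates 1 to 4 and 0, 0 and 1 in controls, with replicate 2 inside the control range. Its DESeq2 log2 fold change was 7.87 (adjusted p = 0.0262), and its adjusted p in the other fits ran from 0.114 to 1.00. It had 12.9 reads per 100 Ttn reads in replicate 1 against 3.93 in replicate 3, with exact intervals that did not overlap.

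By mean CPM, 22 of those 26 genes were higher with anti-LAIR1, 2 were lower and 2 had no read. Only 8 of the 26 passed the count filter, and several of the higher means rest on 3 or fewer reads in every library. The summed level of the list was 41.9, 15.8, 26.5 and 44.2 CPM in anti-LAIR1 replicates 1 to 4. In controls 1 to 3 it was 19.0, 17.4 and 16.1 CPM, so replicates 1, 3 and 4 were highest here too. The 2 most abundant genes of that list overlapped between the groups. Tnni2, the fast troponin I, averaged 6.39 ± 1.05 CPM against 6.07 ± 0.809 CPM (anti-LAIR1 and controls, SD, n = 4 and 3), a log2 fold change of 0.08 (SE 0.20). Tmod4, a thin-filament capping protein, averaged 5.86 ± 0.753 CPM and 6.26 ± 2.78 CPM, a log2 fold change of -0.12 (SE 0.29). The median of this list rested on few genes and was -0.12 without anti-LAIR1 replicate 4, 0.16 without replicate 1 or without replicate 3, and 1.70 without control replicate 2.

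In the slow-fibre and heart lists the groups overlapped. In the slow-fibre list 2 of 7 genes passed the filter and 0 were called. Myh7, the slow and ventricular myosin heavy chain, was present in all 7 libraries, at 60.8, 27.0, 47.0 and 91.0 CPM with anti-LAIR1, against 23.4, 40.7 and 59.3 CPM in controls, with replicate 2 again the lowest anti-LAIR1 library (log2 fold change 0.47, SE 0.45). Tnnc1, the slow troponin C, averaged 1.26 ± 0.454 CPM and 0.734 ± 0.293 CPM. Of 9 heart genes 3 passed the filter, 0 were called, and the median log2 fold change was -0.32. Tnnt2, the heart troponin T, averaged 53.7 ± 14.9 CPM and 67.2 ± 6.98 CPM, and Myh6, the atrial myosin, 4.30 ± 2.43 CPM and 3.37 ± 1.55 CPM (SD, n = 4 and 3). Of the heart markers, Nppa and Myl7 were at 0 in every library. Myh6 and Tnni3 had reads in all 7, with 27 to 105 Myh6 and 13 to 35 Tnni3 reads per library.

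Among genes past the count filter, calcium-handling genes other than Ryr1 and the other muscle enzymes had median log2 fold changes of -0.18 and -0.05. Of 18 calcium genes 7 passed the filter, and 0 were called. Jph1, which holds the reticulum close to the cell membrane, averaged 18.8 ± 4.61 CPM against 23.3 ± 0.864 CPM in controls, and Srl, a calcium-binding protein of the reticulum, 7.85 ± 0.386 CPM and 9.64 ± 0.653 CPM. Srl was lower in every anti-LAIR1 library, at 7.30 to 8.20 CPM, than in any control, at 8.97 to 10.3 CPM, beside 2.51% of tested genes (edgeR adjusted p = 0.980). Atp2a1, the fast-fibre calcium pump, had 16, 2, 20 and 15 reads with anti-LAIR1 and 14, 0 and 6 in controls. Of 14 muscle enzyme genes 6 passed, and 0 were called. Those that did not pass had 15 or fewer reads in every library, so the median does not cover them and the sum barely does. Pfkm, the muscle phosphofructokinase, averaged 40.3 ± 5.18 CPM and 42.1 ± 0.872 CPM, and Eno3, the muscle enolase, 31.6 ± 8.48 CPM and 32.2 ± 2.71 CPM (SD, n = 4 and 3). The summed calcium level was 30.3 to 39.8 CPM with anti-LAIR1, against 38.7 to 43.2 CPM in controls. The summed enzyme level was 136 to 175 CPM with anti-LAIR1, against 141 to 162 CPM in controls.

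Genes of muscle precursors were at or near 0. Of 10 genes of satellite cells, myoblasts and regenerating fibres, 8 were in the table and 0 passed the filter. Pax7, Myf5 and Myod1, the defining markers, had no read in any library. Myog had 1, 0, 2 and 0 reads with anti-LAIR1 and none in controls, and Myh3, the embryonic myosin, had 3 reads in anti-LAIR1 replicate 2 and 3 in control replicate 2.

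The labelled tissue is tumour. Sftpb, a surfactant protein of lung epithelium, was abundant in all libraries, at 1092.7 to 3101 CPM with anti-LAIR1, against 1183 to 1535 CPM in controls, and Ager averaged 10.8 ± 9.72 CPM and 8.06 ± 2.27 CPM. Sftpc had at most 7 reads in a library and Scgb1a1 at most 3. Of 9 lung epithelial genes 5 passed the filter, 0 were called and the median log2 fold change was 0.37, or -0.36 without anti-LAIR1 replicate 4. Smooth muscle genes overlapped between the groups: their summed level was 72.7 to 109 CPM with anti-LAIR1, against 86.7 to 133 CPM in controls, 0 of 5 tested were called, and the leading genes Smtn and Acta2 had log2 fold changes of -0.22 and -0.11.

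The summed lung epithelial level was 1593, 1103, 1244 and 3136 CPM in anti-LAIR1 replicates 1 to 4 and 1198, 1378 and 1545 CPM in controls. Nearly all of this sum was Sftpb. Replicate 2 was the lowest of the 4 by the sum, but for only 4 of the 9 lung epithelial genes, against all 10 muscle genes. All 10 adipocyte genes had a higher mean with anti-LAIR1, but their summed level was 17.6, 211, 37.6 and 21.9 CPM in anti-LAIR1 replicates 1 to 4 and 18.3, 52.5 and 24.5 CPM in controls. The highest library was replicate 2, which was the lowest of the 4 for muscle genes. Plin4, a lipid droplet protein, was at 47.6 CPM there and Lpl, the lipoprotein lipase, at 50.0 CPM. The median over 5 tested adipocyte genes was 1.14, and -0.30 without that replicate, with 0 called.

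All 11 keratinocyte genes had a lower mean with anti-LAIR1. Their summed level was 13.9 to 25.6 CPM with anti-LAIR1, and 35.0, 25.6 and 162 CPM in controls 1 to 3. Krt5, the basal epidermal keratin, had 0, 1, 1 and 1 reads with anti-LAIR1 and 0, 1 and 396 in controls, so control replicate 3 stood apart. Krt14 averaged 16.8 ± 5.26 CPM and 33.4 ± 12.2 CPM (log2 fold change -0.99, SE 0.30). The median over 3 tested keratinocyte genes was -1.91, and -0.081 without control replicate 3, with 0 called.

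Pan-leukocyte genes were higher with anti-LAIR1 in all 10 members by mean, with 0 called by edgeR, Lcp1 called by DESeq2, and a median log2 fold change of 0.51. Their summed level was 401, 315, 320 and 364 CPM in anti-LAIR1 replicates 1 to 4 and 271, 244 and 230 CPM in controls. Replicate 2 lay close to replicate 3 and above all controls. It was below the other anti-LAIR1 libraries for 4 of the 10 leukocyte genes, against all 10 muscle genes. In the other muscle lists it was below them for 14 of 26 fast-sarcomere, 1 of 7 slow-fibre and 1 of 9 heart genes. The same held for 4 of 18 calcium and 4 of 14 muscle enzyme genes. All anti-LAIR1 libraries lay above all controls for 4 of the 10 leukocyte genes, beside 3.06% of tested genes. Lcp1, the leukocyte plastin, averaged 167 ± 21.6 CPM and 118 ± 5.77 CPM, and Cd53, a leukocyte tetraspanin, 44.3 ± 12.8 CPM and 30.4 ± 6.07 CPM (SD, n = 4 and 3). The part of lung epithelial, adipocyte, keratinocyte or leukocyte content in the muscle gene levels was not tested.

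**Figure D4:**
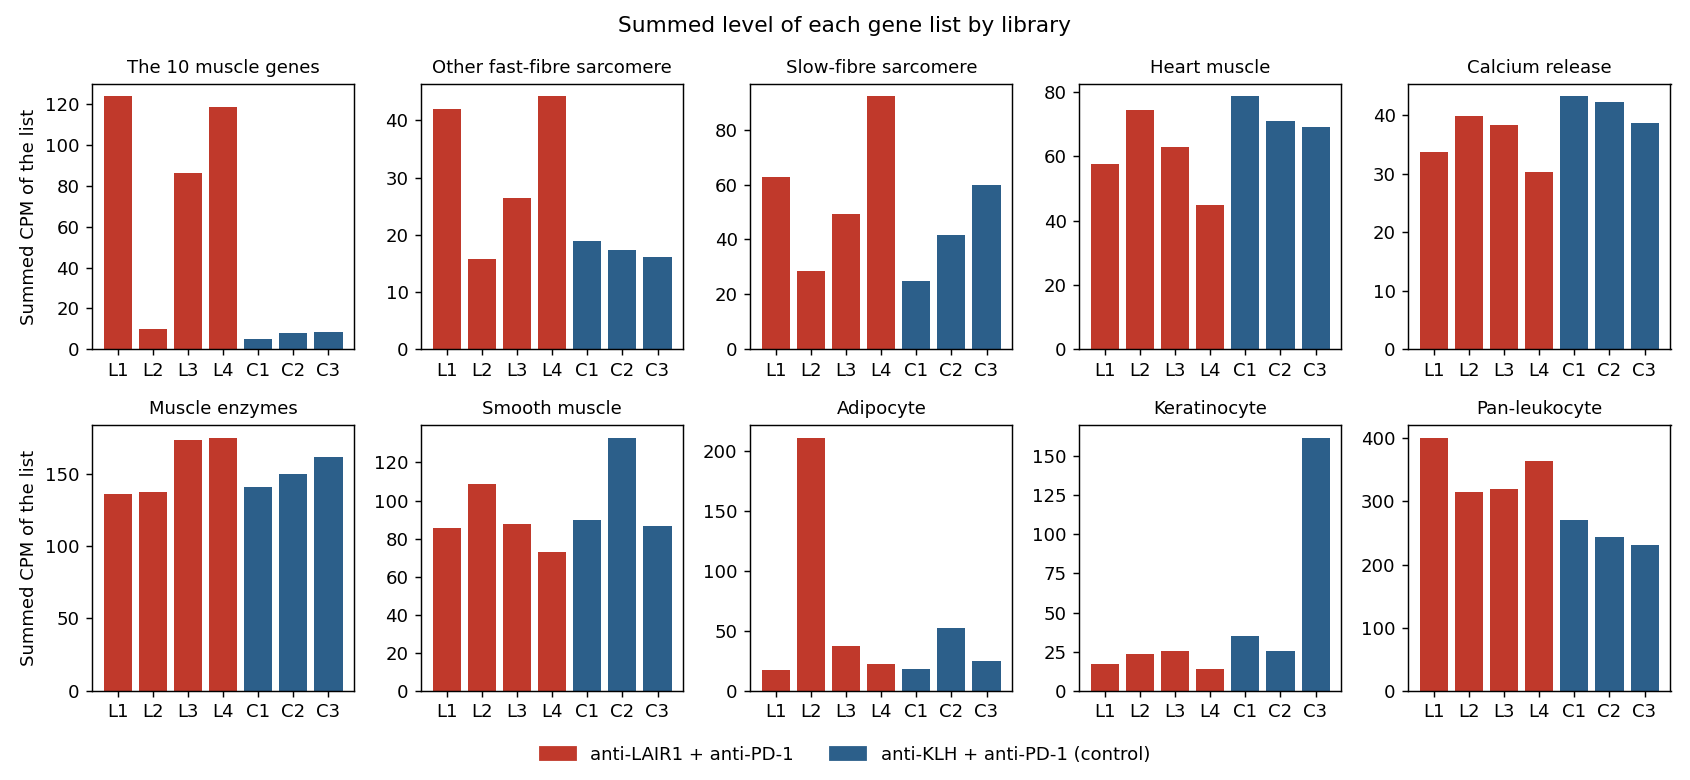
Summed CPM of the 10 muscle genes and of 9 other gene lists in the 4 anti-LAIR1 libraries (L1 to L4, red) and the 3 controls (C1 to C3, blue), each panel with its own axis from 0. The 10 muscle genes are high in L1, L3 and L4, from 86.2 to 124 CPM, the adipocyte list in L2 at 211 CPM and the keratinocyte list in C3 at 162 CPM.

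The 10 tested genes outside the set whose log2 CPM was most like its mean log2 CPM had Pearson correlations from 0.953 to 0.982 over the 7 libraries. These values describe a ranking over all tested genes, all measured in the same 7 libraries with the same groups. The set was chosen with its group difference known, so group differences of genes ranked by likeness to it follow from that choice. Among them were Xirp2, Cmya5 and Nrap of the fast-sarcomere list, and Des, which encodes the muscle intermediate filament desmin. Des stood at 4.74, 0.930, 3.36 and 3.41 CPM in anti-LAIR1 replicates 1 to 4 and at 0.514, 0.598 and 0.509 CPM in controls. All its anti-LAIR1 libraries lay above all controls, beside 3.06% of tested genes (log2 fold change 2.51, SE 0.55, edgeR adjusted p = 0.624). Dnajc15, Bcas1, Fam78a, Klhl36 and Abhd6 were also among them, and these and Des belong to none of the lists. Bcas1 averaged 5.60 ± 2.23 CPM against 2.01 ± 0.199 CPM (anti-LAIR1 and controls), while Dnajc15 averaged 8.46 ± 1.14 CPM and 6.68 ± 0.441 CPM (SD, n = 4 and 3). Their log2 fold changes were 1.48 (SE 0.37) and 0.34 (SE 0.18), and neither passed edgeR's adjusted test (adjusted p = 0.624 and 0.980).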

How the data were processed

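The values deposited by the authors are raw counts, whole numbers for 24421 gene symbols in each of the 7 mice, with 0 rows that name no gene. Tools listed in the submitters' processing notes are STAR 2.7.6, Trim Galore, edgeR 3.40.1 and featureCounts 2.0.1, and the build is mm10. No source used here gives the annotation, the strand setting or how multi-mapped reads were handled, so counts of near copies and overlapping genes are uncertain. Libraries were directional and read as single ends, per the labels' protocols. Total counts per library ranged from 9879762 to 26255727.

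Counts were fitted as deposited in R 4.3.3 with edgeR 4.0.16: filterByExpr at a minimum count of 10, which kept 13545 genes, TMM scaling, and the robust quasi-likelihood test over all 7 libraries with p-values adjusted by Benjamini-Hochberg and called under 0.05. DESeq2 1.42.0 and limma 3.58.1 were alternatives, beside other scalings and filters, muscle genes left out of the totals, and each library left out in turn. Scripts were tested on simulated counts. Log2 CPM used a prior count of 2. Values after ± are SDs. Exact 95% intervals (Clopper-Pearson) and floors of 3 counts cover counting error only. P-values set the difference between the groups against the spread between single mice, and cannot tell treatment from mouse name prefix.

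The 10 genes and the gene lists were chosen with earlier results of these data known. Genes named from the lists were the 2 with the highest mean CPM per list and any called, and the 10 genes most like the set in profile, of which 1 is not reported here. Atp2a1, Tnni3, Sftpc, Scgb1a1 and marker genes at 0 were chosen after their values were seen. Positions and coding lengths are from GENCODE M21 (GRCm38, the assembly that mm10 names), with the longest coding sequence per gene. Promoters are RefSeq windows on GRCm38.p6. Figures were drawn with matplotlib 3.10.9.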

Additional observations from a re-analysis of the deposited data

Results flagged for a closer look

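Of 54 groups of 4 anti-LAIR1 values examined, 4 had 1 library whose gap to the nearest other, as a share of the range, exceeded Dixon's 95% critical value for 4 values, which chance gives in about 1 group in 20. The summed adipocyte level was 211 CPM in anti-LAIR1 replicate 2, with a gap share of 0.896, and the adipocyte gene Plin4 was 47.6 CPM there (0.956). Myh3 was 0.199 CPM in the same library, which is 3 reads against 0 in the other 3. Ager, a lung epithelial gene, was 25.3 CPM in anti-LAIR1 replicate 4 (0.911). None of the 10 muscle genes was picked out in this way.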

How the results depend on the processing

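No paired analysis was possible because the labels give the mice no shared replicate numbers. Log2 fold changes of Ttn, Neb, Acta1, Myh1 and Ryr1 were positive in every alternative that gave a value. Their direction was known when the genes were chosen, so the shared sign is not support for a difference. Acta1 and Ryr1 did not pass the filter without anti-LAIR1 replicate 1, 3 or 4, nor Myh1 without replicate 1, and gave no value there. With DESeq2, Ttn (3.84, adjusted p = 0.00188) and Neb (2.58, adjusted p = 0.00366) passed, and 54 genes in all were called. Over the alternatives the adjusted p of Ttn ran from 0.00188 to 1.00 and that of Neb from 0.00366 to 1.00. With single libraries left out, the number of genes called lay between 0 and 3, and the fold changes ran from 3.61 to 4.25 for Ttn, 2.38 to 2.97 for Neb, 4.94 to 5.78 for Acta1, 2.68 to 8.05 for Myh1 and 4.05 to 6.16 for Ryr1. Without anti-LAIR1 replicate 2 the edgeR adjusted p was 0.00476 for Ttn, 0.00772 for Neb and 0.0180 for Acta1. That replicate was the lowest anti-LAIR1 library for all 10 genes of the set. Since the genes were chosen with the group difference known, nothing is read from these p-values or from those of DESeq2. With limma-voom and quality weights the Acta1 value was 2.45; the cause was not tested. Medians over tested genes with single libraries left out ran from 3.00 to 5.55 for the set, -0.12 to 1.70 for other fast sarcomere genes, -0.30 to 1.72 for adipocyte, -2.42 to -0.081 for keratinocyte and -0.36 to 0.54 for lung epithelial genes; the genes passing the filter differ between these fits. With no filter the medians were 0.90 for slow-fibre, 0.54 for muscle enzyme and -4.60 for keratinocyte genes, over more genes, many with few reads. With limma-voom the keratinocyte median was -0.76. Of 231 alternative values, 212 kept their direction and call or stayed within the spread between libraries. Mylpf, Tnnt3, Actn2, Ckm and Myh4 had 17 or fewer reads in every library, so differences between groups for these were limited by depth.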
